A study of Homo sapiens with 6 samples.

Results

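Transcript levels of 6 genes that detect or edit double-stranded RNA were examined in U251 cells, an established human glioblastoma line, with and without stable overexpression of the long noncoding RNA XLOC013218. The genes were chosen by symbol: OAS1, OAS2, OAS3 and OASL of the oligoadenylate synthetase family, EIF2AK2, which encodes the kinase PKR, and ADAR, which encodes the RNA-editing enzyme ADAR1. All 6 were among the 20330 Ensembl genes of each table and among the 11731 genes that were tested. The series held 3 libraries of control cells and 3 of overexpressing cells, and the label of each library gives its group and replicate number. Whether the overexpressing cells are 1 clone or a selected pool, and what the control cells carry, is not stated by the labels. The design text calls the replicates independent biological ones, and the p-values measure the spread between these 6 libraries. XLOC013218 was not itself quantified for this account.

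OAS1, OAS2 and OAS3 bind double-stranded RNA and then join ATP into short chains of adenosine known as 2-5A, an antiviral messenger. OASL is a relative that has lost the synthetase activity and is known to support the sensor RIG-I. PKR is activated by the same kind of RNA and phosphorylates the translation factor eIF2, which lowers protein synthesis. ADAR1 converts adenosine to inosine in double-stranded RNA and so keeps a cell's own transcripts from being detected by these sensors. All of these genes are known targets of interferon, through a transcription factor complex that contains STAT2 and IRF9 and binds an element with repeated GAAA.

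OAS1, OAS3 and OAS2 follow one another in that order on chromosome 12, between RPH3A and DTX1 among protein-coding genes and all on the same strand, and OASL lies elsewhere on the same chromosome. EIF2AK2 is on chromosome 2 and ADAR on chromosome 1. The RefSeq table of promoters (GRCh38.p14) held 4 of the 6 genes, in 6 entries, since ADAR had 3 start sites. Each entry of 250 bases before to 50 after the start was searched on both strands for the core of the interferon-stimulated response element (GAAA, then any 2 bases, then GAAA) and for the gamma-activated site, TTCNNNGAA. A variant of the core with GGAA as its first part was added after the promoters had been read. The stretch from 170 bases before to 30 after the start is shown here for OAS1 and OAS3, whose transcripts rose, and for EIF2AK2 and the first start site of ADAR, whose changes were smaller. Capitals mark matches to the core or its GGAA variant.
OAS1, chr12:112906792-112906991, plus strand: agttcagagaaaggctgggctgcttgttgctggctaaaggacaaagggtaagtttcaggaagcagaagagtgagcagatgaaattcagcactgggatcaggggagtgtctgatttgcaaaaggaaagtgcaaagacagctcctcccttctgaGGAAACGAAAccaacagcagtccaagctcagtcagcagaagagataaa
OAS3, chr12:112938304-112938503, plus strand: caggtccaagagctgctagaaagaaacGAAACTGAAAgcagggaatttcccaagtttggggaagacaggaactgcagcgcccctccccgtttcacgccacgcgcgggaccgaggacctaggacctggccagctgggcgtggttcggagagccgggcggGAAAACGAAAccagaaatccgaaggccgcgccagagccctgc
EIF2AK2, chr2:37156951-37157150, minus strand: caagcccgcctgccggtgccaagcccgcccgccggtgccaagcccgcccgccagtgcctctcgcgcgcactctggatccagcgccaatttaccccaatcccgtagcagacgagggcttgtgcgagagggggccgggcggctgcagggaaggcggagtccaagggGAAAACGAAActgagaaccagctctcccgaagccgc
ADAR, first start site, chr1:154627968-154628167, minus strand: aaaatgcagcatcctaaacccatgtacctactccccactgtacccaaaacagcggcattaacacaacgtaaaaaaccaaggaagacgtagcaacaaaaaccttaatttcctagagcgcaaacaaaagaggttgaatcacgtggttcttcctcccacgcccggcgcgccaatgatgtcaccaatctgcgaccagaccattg

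OAS3 held 2 matches to the core, one beginning 143 and the other 12 bases before the start. EIF2AK2 held 1 match to it, from 6 bases before the start to 4 after it. OAS1 held no match to the core and 1 to the GGAA variant, beginning 18 bases before the start. The core occurred in 3.57% of the 34796 distinct promoters of the same length, the variant in 2.83% and either of them in 6.14%. The 3 ADAR entries held none of the 3 motifs. ADAR has 23 transcripts in GENCODE 29, and starts outside these 3 entries were not searched. Its FPKM is 1 value per gene and does not separate these transcripts. TTCNNNGAA, which reads the same on both strands, occurred in 7.67% of all promoters and, among these genes, only in OAS1, beginning 168 bases before the start. The matches of the different motifs did not overlap one another. A match describes letters in the window and was not tested as a binding site.

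The 4 genes of the synthetase family rose in overexpressing cells, and the transcripts of PKR and ADAR1 did not pass the test. Levels are given as FPKM, which scales fragments by transcript length and by the size of the library. Levels compared between genes depend on the transcript length used more than levels of 1 gene compared between libraries. The groups were compared with limma on log2(FPKM + 1), adjusted over all 11731 tested genes, and an adjusted p under 0.05 was the threshold. Of the 6 members, 4 passed as higher, 0 as lower and 2 did not pass, where 0.315% of all tested genes passed as higher and 0.205% as lower. Among all tested genes 61 passed (0.52%), 37 higher and 24 lower, or 30 higher and 31 lower after rescaling to TPM. The members had a median log2 fold change of 0.58, against -0.001 for all tested genes.

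OAS1 (ENSG00000089127), the smallest of the synthetases, was at 129, 136 and 133 FPKM in control replicates 1 to 3 and at 194, 189 and 244 FPKM in overexpression replicates 1 to 3. All 3 overexpressing libraries lay above all 3 controls, replicate 3 furthest. The OAS1 mean was 133 ± 3.26 FPKM in control and 209 ± 29.97 FPKM in overexpressing libraries (SD, n = 3 in each group), a log2 fold change of 0.64 (SE 0.09, 95% interval 0.45 to 0.84, limma adjusted p = 0.0242). OAS2 (ENSG00000111335), whose protein repeats the synthetase unit, was at 49.5, 59.1 and 52.2 FPKM in the control libraries and at 104, 93.4 and 143 FPKM in the overexpressing ones. The groups were again separate, and the lowest overexpressing library stood well above the highest control. OAS2 had the largest change of the members, 53.6 ± 4.95 against 113 ± 25.96 FPKM, which was 1.05 on the log2 scale (SE 0.14, 95% interval 0.74 to 1.35, limma adjusted p = 0.0242), or 2.06-fold.

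OAS3 (ENSG00000111331), the largest synthetase and the one known to respond best to long double-stranded RNA, was at 111, 123 and 115 FPKM in the control libraries and at 171, 147 and 184 FPKM in the overexpressing ones. It rose from 116 ± 5.81 to 167 ± 18.6 FPKM, a log2 fold change of 0.52 (SE 0.08, 95% interval 0.34 to 0.69, limma adjusted p = 0.0328). Its groups did not overlap, and its second overexpressing library was the closest to the controls. OASL (ENSG00000135114), the family member without synthetase activity, was at 15.4, 17.2 and 13.98 FPKM in the control libraries and at 25.3, 23.5 and 35.2 FPKM in the overexpressing ones. OASL rose from 15.5 ± 1.62 to 28.0 ± 6.32 FPKM, a log2 fold change of 0.80 (SE 0.14, 95% interval 0.48 to 1.11, limma adjusted p = 0.0488), and lay just inside the threshold.

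**Figure D1:**
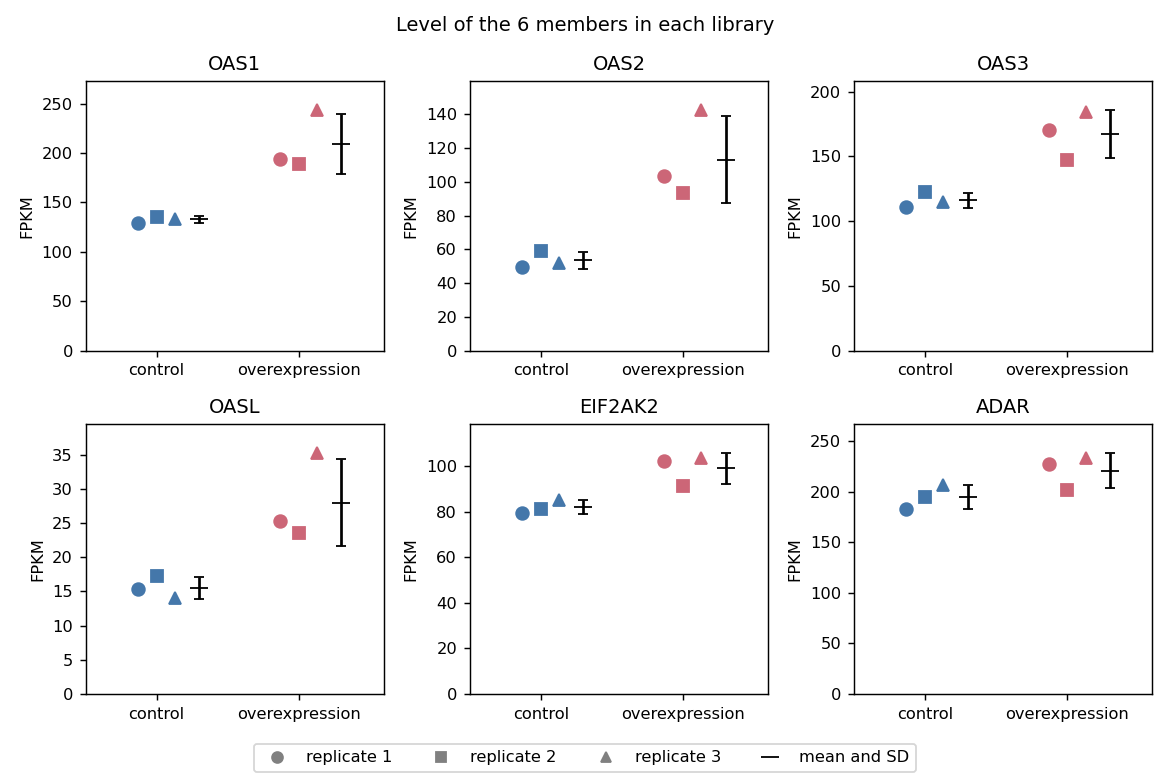
FPKM (linear axis from 0) of each member in the 3 control and 3 overexpression libraries, with the replicate number as the marker shape and the group mean ± SD beside the points. The groups are separate for OAS1, OAS2, OAS3, OASL and EIF2AK2 and overlap for ADAR, and overexpression replicate 3 is the highest library for every member.

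The calls of the 4 genes depended on which libraries were used. None passed without control replicate 1, 2 or 3 or without overexpression replicate 1 (limma adjusted p between 0.0558 and 0.154), OAS1 and OAS2 passed without overexpression replicate 3 (both at a limma adjusted p of 0.00963), and all 4 passed without overexpression replicate 2. The log2 fold change in these 6 fits stayed between 0.53 and 0.71 for OAS1, 0.87 and 1.17 for OAS2, 0.45 and 0.61 for OAS3, and 0.63 and 0.91 for OASL.

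PKR and ADAR1 transcripts were abundant and did not pass. EIF2AK2 (ENSG00000055332) was at 79.7, 81.2 and 85.3 FPKM in the control libraries and at 102, 91.3 and 104 FPKM in the overexpressing ones, so that its groups did not overlap. Its means were 82.0 ± 2.93 and 99.0 ± 6.70 FPKM, and its log2 fold change was 0.27 (SE 0.06, 95% interval 0.13 to 0.40, limma adjusted p = 0.103). ADAR (ENSG00000160710) was at 183, 195 and 207 FPKM in the control libraries and at 227, 201 and 234 FPKM in the overexpressing ones. The second overexpressing library lay below the third control, so the ADAR groups overlapped. Its means were 195 ± 11.97 and 221 ± 17.2 FPKM, and its log2 fold change was 0.18 (SE 0.07, 95% interval 0.03 to 0.33, limma adjusted p = 0.313). The upper ends of these intervals correspond to 1.32-fold for EIF2AK2 and 1.26-fold for ADAR.

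Separate groups were seen in 5 of the 6 members, all higher in overexpressing cells, where 8.81% of all tested genes showed this and 18.9% had separate groups in either direction. Exact two-sided permutation tests gave p = 0.1 for those 5 members, the smallest that 3 libraries against 3 allow, and p = 0.2 for ADAR. The log2 fold changes of OAS2, OASL, OAS1 and OAS3 ranked 14, 23, 48 and 77 among the 11731 tested genes, and those of EIF2AK2 and ADAR ranked 405 and 975. The middle 90% of all tested genes lay between -0.23 and 0.22 on the log2 scale, which leaves EIF2AK2 just outside that range and ADAR inside it.

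**Figure D2:**
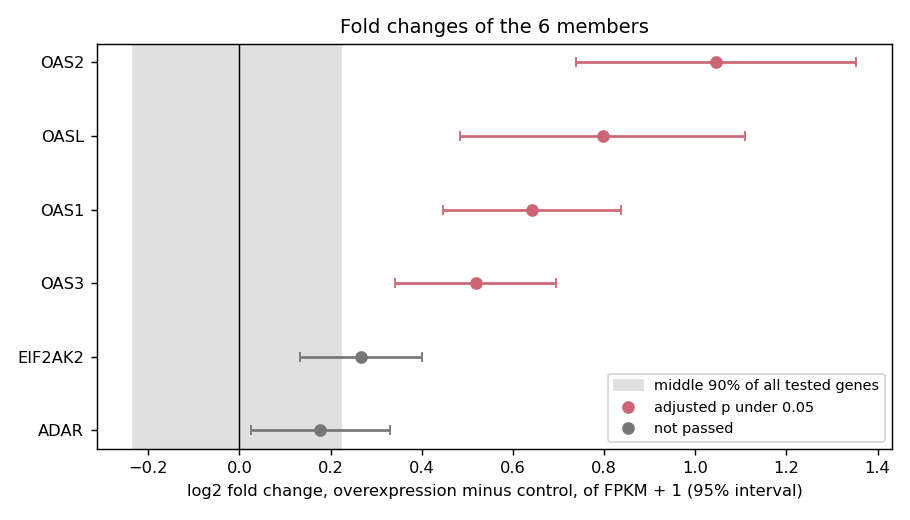
Log2 fold change of FPKM + 1 (overexpression minus control) with its 95% interval from limma for the 6 members, with the middle 90% of all tested genes (-0.23 to 0.22) shaded. OAS2 is the highest at 1.05 and ADAR the lowest at 0.18.

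The order of the member levels was compared within each group. In control cells the order from high to low was ADAR, OAS1, OAS3, EIF2AK2, OAS2 and OASL, and no neighbours in this order overlapped in their range over libraries. In overexpressing cells OAS2 stood above EIF2AK2 on average (113 against 99.0 FPKM), but their ranges overlapped, as did those of ADAR and OAS1. OASL was the lowest member in both groups, 3.45-fold under OAS2 in control cells. FPKM values rest on the transcript length used, and these genes have between 4 (OASL) and 23 (ADAR) transcripts in GENCODE 29, so levels compared between genes depend on that choice more than levels of 1 gene compared between libraries.

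The summed level of the 4 OAS genes was 318 ± 15.01 FPKM over the control libraries and 518 ± 78.7 FPKM over the others. OAS2 made up 16.2%, 17.7% and 16.6% of that sum in the control libraries and 20.97%, 20.6% and 23.5% in the overexpressing ones. OAS3 made up between 36.4% and 36.6% in the control libraries and 34.5%, 32.5% and 30.4% in the overexpressing ones. The share of OAS2 was thus larger and that of OAS3 smaller in each overexpressing library (exact permutation p = 0.1 for each, the smallest possible, adjusted p = 0.2 over the 4 shares). The shares of OAS1, 41.8% ± 1.04 and 40.4% ± 1.20, and of OASL, 4.87% ± 0.373 and 5.38% ± 0.387, overlapped between the groups.

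The members were also compared with one another within each library, in tests that could not pass at this number of libraries. The within-library difference OAS2 minus OAS3 was -1.11 ± 0.06 on the log2 scale in control cells and -0.58 ± 0.19 in overexpressing cells, a shift of 0.53 towards OAS2. OAS1 minus OAS2 went from 1.297 ± 0.10 to 0.89 ± 0.12, and OAS2 minus ADAR from -1.85 ± 0.13 to -0.98 ± 0.23, the largest shift of all pairs at 0.87. EIF2AK2 minus ADAR was at -1.24 ± 0.04 and -1.15 ± 0.02. The groups overlapped for OAS1 with OAS3 and for OAS1 with OASL. None of the 15 pairs could pass, since the smallest exact permutation p is 0.1 (adjusted p = 0.115 over the 15 pairs), and the pairs share members and libraries.

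The members shared an order over the overexpressing libraries but not over the control libraries. In each of the 6, overexpression replicate 3 was the highest of its group and overexpression replicate 2 the lowest, an order that 14.9% of all tested genes showed. The mean deviation of the 6 members from their control means was 0.54, 0.40 and 0.78 on the log2 scale in overexpression replicates 1 to 3, and lay between -0.06 and 0.06 in the control libraries. OAS2 deviated by 0.94, 0.79 and 1.40 in these 3 libraries and ADAR by 0.22, 0.05 and 0.26. The median over all tested genes stayed within 0.003 of 0 in every library. A reference list of other interferon-induced genes was chosen with earlier results of these data known. Its 37 tested genes deviated on average by 0.56, 0.39 and 0.87 in the same 3 libraries, with the third highest and the second lowest again. Within the control group, replicate 3 was the lowest library for OASL (-0.14) and the highest for ADAR (0.09).

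**Figure D3:**
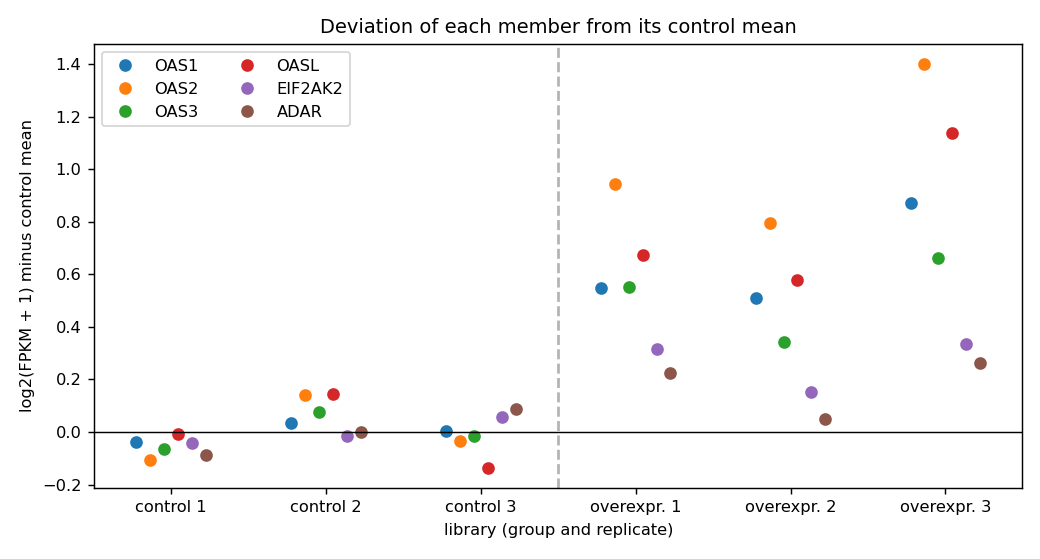
Deviation of log2(FPKM + 1) from the control mean for each member (colours) in each of the 6 libraries, control on the left of the dashed line and overexpression on the right. The overexpression libraries differ in height, with mean deviations of 0.54, 0.40 and 0.78, while in each of them OAS2 is the highest and ADAR the lowest member.

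The spread between libraries was wider in overexpressing cells for each of the 6 members, as it was for 52.2% of all tested genes. For OAS2 the coefficient of variation was 9.24% in control and 22.9% in overexpressing cells, and for OAS1 it was 2.45% and 14.3%. ADAR changed least, with 6.14% and 7.80%. The medians over all tested genes were 6.59% and 6.90%.

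Across the 6 libraries the log2 levels of OAS1 and OAS2 had a Pearson correlation of 0.996, and the lowest correlation between members was 0.784, for OASL with ADAR. These values are descriptions over 6 points that share a group difference. The 3 genes most like OAS1 were RSAD2 (viperin, 0.999), TENT5A (0.997) and SAMHD1 (0.996), and those most like OAS2 were TRIM22 (0.999), IFIT1 (0.997) and TAP1 (0.996). HELZ2 (0.999), MX1 (0.999) and WARS1 (0.997) were nearest to OAS3, and B2M (0.998), UBE2L6 (0.994) and IFITM1 (0.993) to OASL. Of these 12 genes 7 stood in the reference list, as did 37 of the 11731 tested genes. Because that list was chosen with earlier results of these data known, the count is a description and no test. The genes nearest to EIF2AK2 were XAF1 (0.992), PARM1 (0.988) and ITGB3 (0.985), and those nearest to ADAR were MIPOL1 (0.988), RTL3 (0.987) and ITPR2 (0.986), none of the last 3 in the list. To the mean of the 6 members the nearest were AUP1 (0.999), TRIM22 (0.998) and MX2 (0.998). Of 11502 genes compared over these 6 libraries, 82 reached 0.95 with OAS1, 89 with OAS2 and 32 with ADAR. The 3 genes named for each of these members were thus picked from many at that level.

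Genes listed for the 2-5A arm did not pass the test. Of the 5 genes listed for this arm, 0 passed limma's test in either direction, where 0.52% of all tested genes passed. By limma 1 had an unadjusted p under 0.05, as did 12.7% of all tested genes. That 1 gene was SAMHD1, which encodes a nucleotide hydrolase that does not itself act on 2-5A. SAMHD1 was at 83.6 ± 2.42 and 109 ± 10.4 FPKM and just missed the threshold (limma adjusted p = 0.0515). ABCE1, a ribosome recycling factor, was at 45.3 ± 4.94 and 47.5 ± 3.29 FPKM, and PDE12, which degrades 2-5A, at 13.4 ± 0.826 and 14.1 ± 0.332 FPKM.

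On the PKR side no gene passed either. Of 7 genes for proteins that bind or regulate PKR, 0 passed limma's test, where 0.52% of all tested genes passed. By limma 1 had an unadjusted p under 0.05 (12.7% of all tested genes), and the median log2 fold change was 0.04. NPM1, the most abundant of them, was at 1697 ± 89.3 and 1843 ± 104.5 FPKM, and the helicase DHX9 at 101 ± 5.52 and 104 ± 6.04 FPKM. PRKRA, the PKR activator PACT, named here after its values were seen, was at 27.3 ± 1.17 in control and 23.7 ± 0.483 FPKM in overexpressing cells, without overlap and below the controls (limma adjusted p = 0.216). Among 16 genes for eIF2, its other kinases, its exchange factor eIF2B and its phosphatases, 0 passed (again against 0.52%). By limma 4 had an unadjusted p under 0.05 (again against 12.7%). The 16 genes had 9 positive and 7 negative log2 fold changes and a median of 0.03. EIF2AK1, a kinase of eIF2 that responds to haem, was at 155 ± 3.52 and 157 ± 0.958 FPKM. The phosphatase catalytic subunit PPP1CA was at 164 ± 6.59 and 154 ± 8.79 FPKM, and PPP1CB at 163 ± 5.30 and 139 ± 10.5 FPKM. The overexpression values of PPP1CB were below all controls (limma adjusted p = 0.157). Of the 16 genes, 4 had separate groups with overexpression higher and 1, PPP1CB, with it lower (8.81% and 10.1% of all tested genes).

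Genes that are known to be induced after eIF2 phosphorylation were all on the higher side without a call. All 8 had positive log2 fold changes with a median of 0.26, 5 of them with separate groups and overexpression higher (8.81% of all tested genes). By limma 7 had an unadjusted p under 0.05 and 0 passed after adjustment. Over all tested genes 12.7% had such an unadjusted p and 0.52% passed. DDIT3, which encodes CHOP, stood at 30.3, 29.98 and 30.5 FPKM in the control libraries and at 43.5, 36.3 and 39.6 FPKM in the overexpressing ones (log2 fold change 0.38, limma adjusted p = 0.0537). ATF4, the transcription factor of this response, was at 169 ± 5.33 and 189 ± 17.5 FPKM, and ASNS, asparagine synthetase, at 34.8 ± 1.597 and 41.0 ± 2.45 FPKM. DDIT3 was highest in overexpression replicate 1, whereas the OAS genes were highest in replicate 3.

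The list of relatives of ADAR gave 0 calls by limma among 5 tested of 8, where 0.52% of all tested genes were called. Its median log2 fold change was -0.04. The list also held AIMP2, which encodes a scaffold of the tRNA synthetase complex and no editing enzyme. AIMP2 was the 1 gene of the list with an unadjusted p under 0.05 and with separate groups. Of all tested genes 12.7% had such an unadjusted p and 18.9% had separate groups in either direction. AIMP2 was at 50.4 ± 1.87 and 57.7 ± 2.71 FPKM (limma adjusted p = 0.19). ADAT1 and ADAT3, for deaminases that act on transfer RNA, were at 29.8 ± 1.82 and 28.2 ± 3.39 FPKM and, for the latter, 22.3 ± 1.03 and 21.7 ± 1.299 FPKM. ADARB2 and ADAD1 were listed at 0 in all 6 libraries. ZBP1, the other protein known to bind the Z-form of double-stranded RNA, averaged 0.01 FPKM in the control and 0.037 FPKM in the overexpression libraries and was not tested.

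Sensors of double-stranded RNA and their adaptors had a median log2 fold change of 0.30 over 11 tested genes. Of these 11, 0 passed limma's test in either direction, against 0.52% of all tested genes. At an unadjusted p under 0.05 there were 6, against 12.7% of all tested genes, and 6 had separate groups with overexpression higher, against 8.81%. RIGI, the sensor RIG-I that OASL supports, was at 64.9 ± 5.10 and 83.3 ± 13.4 FPKM (limma adjusted p = 0.204), and TRIM25, a ubiquitin ligase that acts on it, at 59.5 ± 6.01 and 69.3 ± 3.11 FPKM. IRF3, the transcription factor downstream, was at 66.2 ± 5.50 and 63.5 ± 3.66 FPKM. IFIH1, the sensor MDA5, named after its values were seen, was at 26.9, 27.9 and 29.04 FPKM in the control libraries and at 39.0, 36.0 and 50.98 FPKM in the overexpressing ones, with the third library highest as for the OAS genes (log2 fold change 0.56, limma adjusted p = 0.0710).

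**Figure D4:**
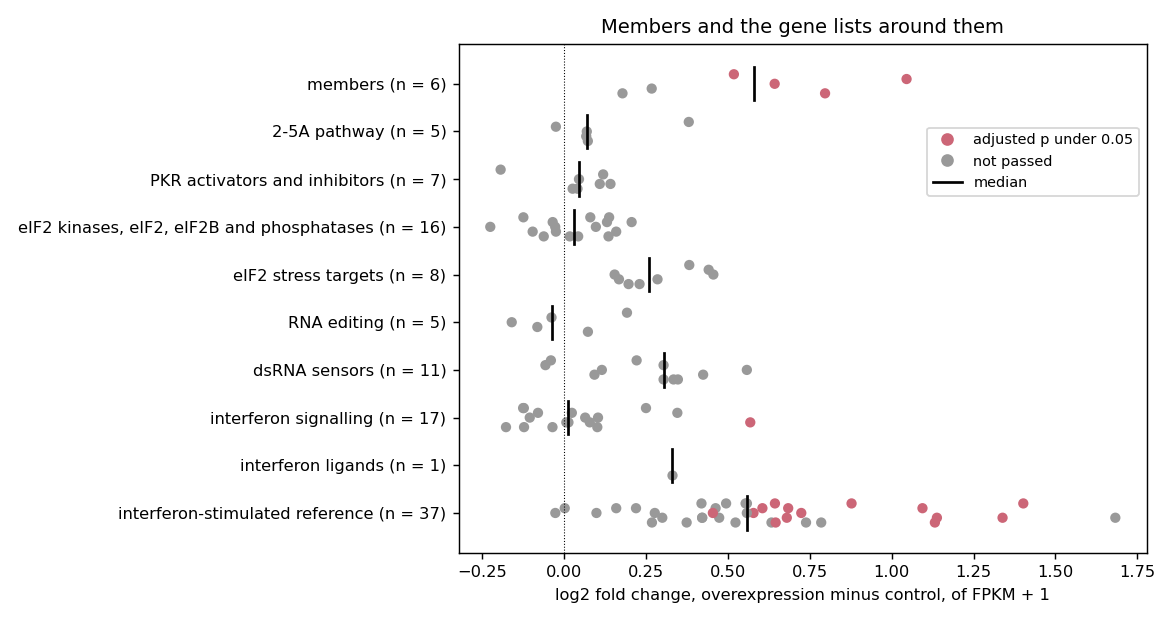
Log2 fold change of FPKM + 1 (overexpression minus control) of each tested gene in the member set and in 9 lists around it, coloured by the adjusted p, with the median of each list as a bar. The medians are 0.58 for the members and 0.56 for the interferon-stimulated reference list, against 0.07 for the 2-5A pathway, 0.03 for the eIF2 machinery and 0.01 for interferon signalling.

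Among interferon receptors, kinases and transcription factors, 1 feedback gene passed the test. Of 17 tested, 1 rose, 0 fell and 16 did not pass, with a median log2 fold change of 0.01. Over all tested genes 0.315% passed as higher and 0.205% as lower. Separate groups were seen in 5 of the 17, all higher in overexpressing cells, against 8.81% of all tested genes. The gene that rose was USP18, the protease that removes ISG15 and restrains the receptor, from 41.1 ± 0.915 to 61.9 ± 9.34 FPKM (limma adjusted p = 0.0384). IRF9 was at 72.8 ± 1.64 and 74.2 ± 6.38 FPKM and the receptor kinase TYK2 at 52.7 ± 0.940 and 56.6 ± 3.70 FPKM. Of 10 ligand genes (9 interferons and IL6), 5 were listed at 0 in all libraries and only IL6, at 1.54 ± 0.0808 and 2.25 ± 0.822 FPKM, reached the level for testing, without a call. IFNB1, the interferon beta gene, was listed at 0.13, 0.19 and 0 FPKM in the control libraries and at 0.49, 0.29 and 0.28 FPKM in the overexpressing ones. IFNE was at 0.387 ± 0.126 and 0.357 ± 0.0709 FPKM.

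The reference list of 38 other interferon-induced genes was chosen with earlier results of these data known. Of 37 tested, 14 rose, 0 fell and 23 did not pass, where 0.315% of all tested genes passed as higher and 0.205% as lower. Separate groups with overexpression higher were seen in 34 of the 37, against 8.81% of all tested genes. Their median log2 fold change was 0.56, which the 4 OAS genes bracket (0.52 to 1.05) and EIF2AK2 and ADAR stay below. The listed genes with the lowest p were HLA-B, LY6E, RSAD2 and TRIM22, with log2 fold changes of 1.34, 1.09, 1.40 and 0.88. IFI6, BST2 and IFI27, the most abundant, were at 1911 ± 174 and 3077 ± 473 FPKM, 1162 ± 57.3 and 1399 ± 89.5 FPKM, and 933 ± 69.9 and 1396 ± 149 FPKM. That count of 14 became 0 when control replicate 1, 2 or 3 was left out. It became 3, 17 or 10 when overexpression replicate 1, 2 or 3 was, 21 when libraries were weighted by quality, 9 under quantile normalization or the replicate block, and 0 without the trend or the filter on low values.

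The members differ in sequence. Over all GENCODE 29 transcripts, any 2 OAS genes shared at most 7 stretches of 25 bases, 0.197% of those of the smaller gene, and OAS2 shared none with any other member. OAS1 shares exon sequence with an antisense gene, AC004551.1, and EIF2AK2 with GPATCH11 and a pseudogene on the opposite strand. The library kit is described as stranded, but the labels do not say whether the counting used strand, so reads of such pairs may not have been told apart. GPATCH11 was at 7.20 ± 0.717 and 6.91 ± 0.729 FPKM, far below EIF2AK2.

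The libraries were alike in general measures. Each library's FPKM values totalled between 598683 and 621922, and the depth relative to control replicate 2, estimated from the steps between low values, was between 0.786 and 1.0 with overlap between the groups. Of 11 glioma and astrocyte markers 6 were tested by limma, 0 passed and 2 had an unadjusted p under 0.05. Of all tested genes 0.52% passed and 12.7% had such an unadjusted p. Both markers, GFAP among them, were below all controls in every overexpressing library, as were 10.1% of all tested genes. VIM averaged 3840 and 3581 FPKM, GFAP was at 41.6 ± 6.06 and 21.6 ± 7.91 FPKM (limma adjusted p = 0.107), and S100B, AQP4, CHI3L1, ALDH1L1 and OLIG2 were under 1 FPKM in both group means. Leukocyte markers summed to between 8.07 and 9.49 FPKM in the control and between 11.8 and 13.3 FPKM in the overexpressing libraries, so the groups did not overlap, and 0 of the 2 tested passed. Most of that sum was CD68, a lysosomal protein, at 7.19 ± 0.4996 and 10.1 ± 0.847 FPKM (limma adjusted p = 0.0831). CD68 was at 9.79, 11.1 and 9.53 FPKM in overexpression replicates 1 to 3, highest in replicate 2, where the OAS genes were lowest. PTPRC, under the level for testing, was at 0.13, 0.17 and 0.15 FPKM in the control libraries. In overexpression replicates 1 to 3 PTPRC was at 0.65, 0.39 and 0.52 FPKM, without overlap and lowest in replicate 2, as the OAS genes were. CD3E was listed at 0 in all libraries. Epithelial markers summed to between 1.6 and 2.51 FPKM and endothelial markers to between 4.47 and 5.67 FPKM, with overlap between the groups. The part of any of these in the OAS results was not tested. In bulk RNA, a higher level in every cell and a larger share of cells with a high level cannot be told apart.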

How the data were processed

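RNA sequencing of 6 U251 libraries, 3 control and 3 overexpressing XLOC013218, was analysed from the tables the authors deposited, 1 per library, whose gene values are FPKM rounded to 2 decimals. Per the submitters' processing notes, the tools were Cufflinks 2.2.1, TopHat, RSEM 1.3.1, Bowtie and edgeR and the build was hg18, without a role for each. The design text describes cytoplasmic RNA without poly(A) selection, whereas the labels' protocols describe poly(A)-selected stranded libraries, and this was not resolved. Because FPKM holds no read totals, depth in reads is unknown here. An incomplete final line in 5 tables, among assembled loci after the Ensembl genes, was not read.

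Symbols came from a table of gene names that matched 19447 of 20330 identifiers. Genes present in every table and averaging 1 FPKM or more over the 6 libraries were tested on log2(FPKM + 1), without further scaling, by limma 3.58.1 in R 4.3.3 (limma-trend, group as the only term, two-sided, Benjamini-Hochberg adjustment over all tested genes, threshold 0.05). Fold changes on this scale understate the change of low genes. Exact permutation tests used scipy 1.17.1 in Python 3.11.15. The script was tested on simulated data. The members, the gene lists and the tests were chosen with earlier results of these data known. The rule for naming genes took the members, of each list the genes past the threshold (at most the 4 with the lowest adjusted p) and the 3 most abundant, and the 3 most correlated with each member and with the mean of the members. The alternatives tried were another pseudocount, 2 other filters, TPM, quantile normalization, no trend, array quality weights, a replicate block and leaving out each library. Gene order and overlaps came from GENCODE 29 (GRCh38), and promoters from RefSeq. Some items that the rule names are not reported here.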

Additional observations from a re-analysis of the deposited data

How the results depend on the processing

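The log2 fold change of each of the 6 members was positive under all 14 alternatives. With no filter on low values, OAS1 (0.64), OAS2 (1.05), OAS3 (0.52) and OASL (0.80) did not pass (limma adjusted p between 0.158 and 0.193), 0 members passed and 1 gene was called in all. Without a trend in limma the same 4 values (0.64, 1.05, 0.52 and 0.80) did not pass either (limma adjusted p between 0.125 and 0.146), with 0 members and 1 gene called. OASL missed the threshold after rescaling to TPM (log2 fold change 0.80, limma adjusted p = 0.054) and under quantile normalization (0.80, limma adjusted p = 0.0532), and ran from 0.0262 to 0.193 over its alternatives. Array quality weights gave 197 genes and added EIF2AK2 (0.29, limma adjusted p = 0.0379, against values between 0.0536 and 0.332 elsewhere). With the replicate number as a block 19 genes and 2 members were called, and OAS3 (0.52, limma adjusted p = 0.0771) and OASL (0.80, limma adjusted p = 0.0992) did not pass. Same-numbered libraries did not deviate together (correlations of -0.04, -0.06 and 0.04), so the numbers were not taken as pairs. ADAR passed under no alternative (limma adjusted p between 0.138 and 0.592).

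Leaving out 1 library gave between 1 and 60 genes and between 0 and 4 members. The log2 fold changes then ran from 0.53 to 0.71 (OAS1), 0.87 to 1.17 (OAS2), 0.45 to 0.61 (OAS3), 0.63 to 0.91 (OASL), 0.23 to 0.32 (EIF2AK2) and 0.13 to 0.24 (ADAR). The cause of each lost call was not tested.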
